A study of Mus musculus with 12 samples.

Results

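Late fetal mouse kidney was compared with mid-gestation kidney. The late group held the 4 arrays titled E16 and E18, 2 of each stage, and the reference group the 2 arrays titled E14. These 6 arrays were all the arrays of those 3 titles among 12 in the series, which also held 3 at E12 and 3 at E13 (E12 to E18 are embryonic days 12 to 18). Each array carried total RNA of whole mouse embryonic kidney with no treatment named, amplified, labelled with biotin and read by chemiluminescence on a membrane with 120 gene spots for 118 genes of the Notch pathway and its neighbours. The sources used here do not name the strain, the sex or the number of embryos per RNA. The arrays of a stage were labelled as technical replicates, so every p-value below measures the spread between arrays only and says nothing of the spread between embryos.

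Notch signalling passes between touching cells. A membrane ligand (Jagged or Delta-like) on one cell binds a Notch receptor on its neighbour, ADAM and gamma-secretase proteases cut the receptor, and the freed intracellular part joins Rbpj to switch on genes such as those of the Hes and Hey families. In the developing kidney, the pathway is known for its part in the patterning of the early nephron, in which proximal tubule and podocyte precursors depend on it. In bulk RNA, a lower signal from fewer cells of a type cannot be told apart from less RNA per cell.

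Of the 118 genes, 106 exceeded background throughout at least 1 stage and were tested. Background was the mean plus 2 SD of the array's 6 negative-control spots. The remaining 12 were the Hedgehog genes Shh and Ptch1, the Frizzled genes Fzd4 and Fzd10, the immune genes Il2ra and Sh2d1a, the kinase genes Map2k7 and Pdpk1, and Cd44, Mmp7, Pcaf and Cdkn1b, each above background on 1 to 3 of the 6 arrays compared. The mean negative control was 1745 and 946 at E14 and 908 to 3495 on the late arrays (difference in means 581, exact 2-sided permutation p = 0.667, where 4 against 2 arrays cannot go below 0.0667). Median gene signal over the mean control was 3.53 and 7.67 at E14 and 2.77 to 8.47 on the late arrays (exact p = 0.933). Background followed the array number rather than the group: it was 1745 to 3495 on the 3 arrays numbered 1 and 908 to 979 on the 3 numbered 2. The labels do not say whether a number marks a batch. The array held 1 of 8 listed markers of developing kidney, Wnt11, a ligand of the ureteric bud tip, which was above background on all 6 arrays, so the tissue label could hardly be checked.

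No gene passed the test between the late group and E14. The 3 genes nearest to it were Krt1 and Lor, which make proteins of differentiating epidermis and were lower on all 4 late arrays, and Fos, an immediate early transcription factor, which was higher on all 4. In the limma fit, 0 of 106 genes (0%) had an adjusted p under 0.05, and 11 (10.4%) had an unadjusted p under 0.05, 6 higher (5.66%) and 5 lower (4.72%). In random order, 4 arrays lie wholly above 2 others with a probability of 0.0667, and wholly below with the same probability. For 17 genes (16.0%) the groups did not overlap. These were 9 genes (8.49%) with all 4 late arrays above both E14 arrays and 8 (7.55%) with all 4 below. That balance moved with the scaling, to 3 above and 11 below with array medians, 5 and 6 with housekeeping scaling, 8 and 4 with no normalization, and 4 and 5 of 103 genes in the deposited ratios. A gene standing alone would have needed a difference of 0.50 to 5.28 log2 units, with a median of 1.58, to pass at its own standard error. With a smaller difference a gene standing alone would not have passed, although the adjustment asks less where several genes have a small p.

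**Figure D1:**
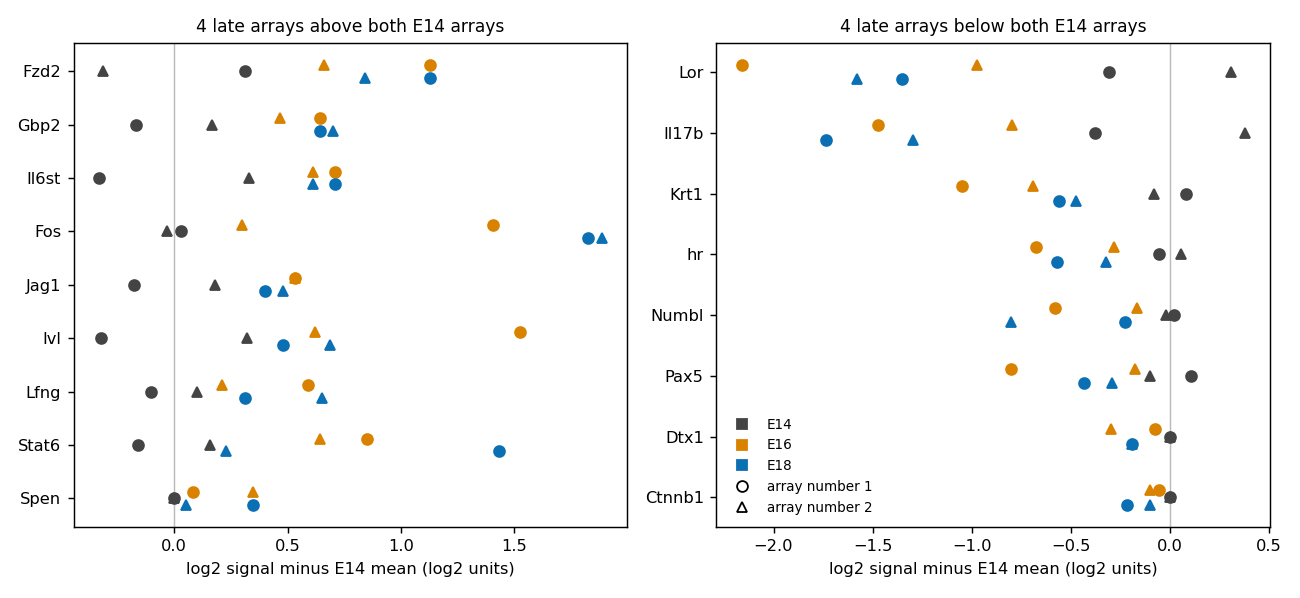
Each point is the normalized log2 signal of 1 array minus the mean of the 2 E14 arrays, in log2 units, for the 17 genes whose late and E14 arrays did not overlap, with colour for the stage and shape for the array number (identical values lie over each other). Fos, Lor and Il17b had the late arrays farthest from E14, while Spen, Dtx1 and Ctnnb1 had the late arrays just past the nearer E14 array.

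Krt1, a keratin of differentiating epidermis, had normalized log2 signals of 12.08 and 11.93 on the E14 arrays. It stood at 10.96 and 11.32 on the E16 arrays and at 11.45 and 11.53 on the E18 arrays. All 4 late values lay below both E14 values, and E16 lay lowest. The means were 12.01 ± 0.11 (SD, n = 2) and 11.31 ± 0.25 (SD, n = 4), a 1.62-fold lower level (difference -0.69, SE 0.13, 95% interval -0.99 to -0.39, limma adjusted p = 0.0633). In the deposited signals, 5502 and 5828 at E14 compared with 3701, 2748, 6289 and 3748, so that the groups overlapped before background correction and scaling. The array with 6289, E18 array 1, had the highest negative control of the 12. In the authors' deposited ratios to Ppia, Krt1 was at 0.121 and 0.133 at E14 and at 0.0671, 0.0591, 0.102 and 0.0815 on the late arrays, again all lower.

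Lor encodes loricrin, the main protein of the cornified envelope of skin. Its log2 signal was 13.06 and 13.68 at E14, then 11.21 and 12.39 at E16 and 12.02 and 11.79 at E18. The highest late array was 0.67 below the lower E14 array, the widest gap of the 17 genes, although the 2 E16 arrays lay far apart. In the deposited signals, 7736 and 18396 at E14 compared with 3955, 6385, 8431 and 5311, and E18 array 1 lay above E14 array 1. The means were 13.37 ± 0.44 (SD, n = 2) and 11.85 ± 0.50 (SD, n = 4), a 2.86-fold lower level (difference -1.52, SE 0.35, 95% interval -2.30 to -0.73, limma adjusted p = 0.0755). At E12 and E13 the mean had been 13.42 and 13.09, close to that of E14.

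Fos encodes a subunit of the transcription factor AP-1 and is known for its fast induction by serum and stress. At E14 its 2 arrays nearly coincided, with log2 signals of 11.93 and 11.87. The E16 arrays lay far apart, at 13.30 and 12.20, and the E18 arrays were both high, at 13.72 and 13.78. The mean difference was 1.35 (SE 0.31, 95% interval 0.64 to 2.07, limma adjusted p = 0.0755), a 2.56-fold higher level. Deposited signals were 5471 and 5041 at E14, 9224 and 5301 at E16, and 13831 and 17793 at E18. In these signals E16 array 2 lay within the E14 range and the other 3 late arrays well above it. Without E16 array 2, Krt1, Lor and Fos each passed (limma adjusted p = 0.00995 for all 3). Over the 27 alternatives tried, the adjusted p ran from 0.00995 to 0.937 for Krt1 and Fos and from 0.00995 to 0.913 for Lor.

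The proximal promoters of Lor and Fos, and of the ligand gene Jag1 described next, are shown because these genes were among the 5 with the smallest p. They are RefSeq sequences of build GRCm38.p6, 300 bases each, ending 50 bases after the annotated start; Krt1 and Fzd2, the other 2, are named only. Capitals mark matches on either strand to TGANTCA (the AP-1 motif), TGACGT (the core of the cyclic AMP response element), TATAAA (the TATA box) and TGGGAA (the core of the Rbpj motif).
Lor, chr3:92083093-92083392, minus strand: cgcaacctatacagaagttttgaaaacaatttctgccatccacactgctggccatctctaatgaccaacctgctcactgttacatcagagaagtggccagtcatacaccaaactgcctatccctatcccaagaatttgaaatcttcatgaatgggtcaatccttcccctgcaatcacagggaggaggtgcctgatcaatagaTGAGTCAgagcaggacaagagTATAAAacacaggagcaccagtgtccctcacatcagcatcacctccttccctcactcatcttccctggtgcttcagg
Fos, chr12:85473640-85473939, plus strand: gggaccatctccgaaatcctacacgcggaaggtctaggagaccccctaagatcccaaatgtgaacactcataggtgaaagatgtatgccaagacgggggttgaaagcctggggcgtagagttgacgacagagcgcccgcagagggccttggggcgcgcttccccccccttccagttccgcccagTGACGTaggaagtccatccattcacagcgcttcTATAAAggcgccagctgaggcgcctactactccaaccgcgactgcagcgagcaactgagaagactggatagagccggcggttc
Jag1, chr2:137116471-137116770, minus strand: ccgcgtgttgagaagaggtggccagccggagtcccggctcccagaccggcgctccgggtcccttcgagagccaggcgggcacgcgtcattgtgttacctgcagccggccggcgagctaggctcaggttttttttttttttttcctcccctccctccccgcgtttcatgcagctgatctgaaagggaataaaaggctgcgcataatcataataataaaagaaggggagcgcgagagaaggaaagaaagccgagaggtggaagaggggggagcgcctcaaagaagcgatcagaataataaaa
The Lor window held TGANTCA with its first base at -48 from the start and TATAAA at -27. The Fos window held TGACGT at -66 and TATAAA at -33. None of the 4 motifs was in these 300 bases of Jag1. Of 32851 mouse promoter windows of this length, 7.81% held TGANTCA, 7.51% TGACGT, 13.6% TATAAA and 25.6% TGGGAA. Such matches describe the letters and do not show that a factor binds.

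Krt1 and Lor belong to a list of 6 keratinocyte markers, all on the array and all tested. The members did not move one way. Krt14, a keratin of the basal layer, stood higher on average in the late group (difference 1.04, SE 0.36, adjusted p = 0.324), with log2 signals of 11.32 and 12.25 at E14, 12.20 and 12.61 at E16, and 13.42 and 13.06 at E18. E16 array 1 lay below E14 array 2, and both E18 arrays lay above all others. Its E14 level was the lowest of the 5 stages, after 14.06 at E12 and 13.26 at E13. Ivl, the involucrin gene of the cornified envelope, was above background on neither E14 array, on both E16 arrays and on neither E18 array. No fold is given for it, since the E14 arrays and 2 of the 4 late arrays were at background (limma adjusted p = 0.439). Krt10, the partner keratin of Krt1, differed by -0.27 (SE 0.19) and Krt5, the partner of Krt14, by -0.28 (SE 0.46). Of the 6, 2 were higher and 2 lower at an unadjusted p under 0.05, where 5.66% of all genes were higher and 4.72% lower, and 0 passed. The list's median was -0.27, against -0.01 over all 106 genes. Summed over the 6 markers, linear normalized signal was 33220 and 38391 at E14 and 22619 to 32747 on the late arrays, and 4 of the 6 were above background on all 6 arrays. The part of epidermal RNA in these differences was not tested.

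**Figure D2:**
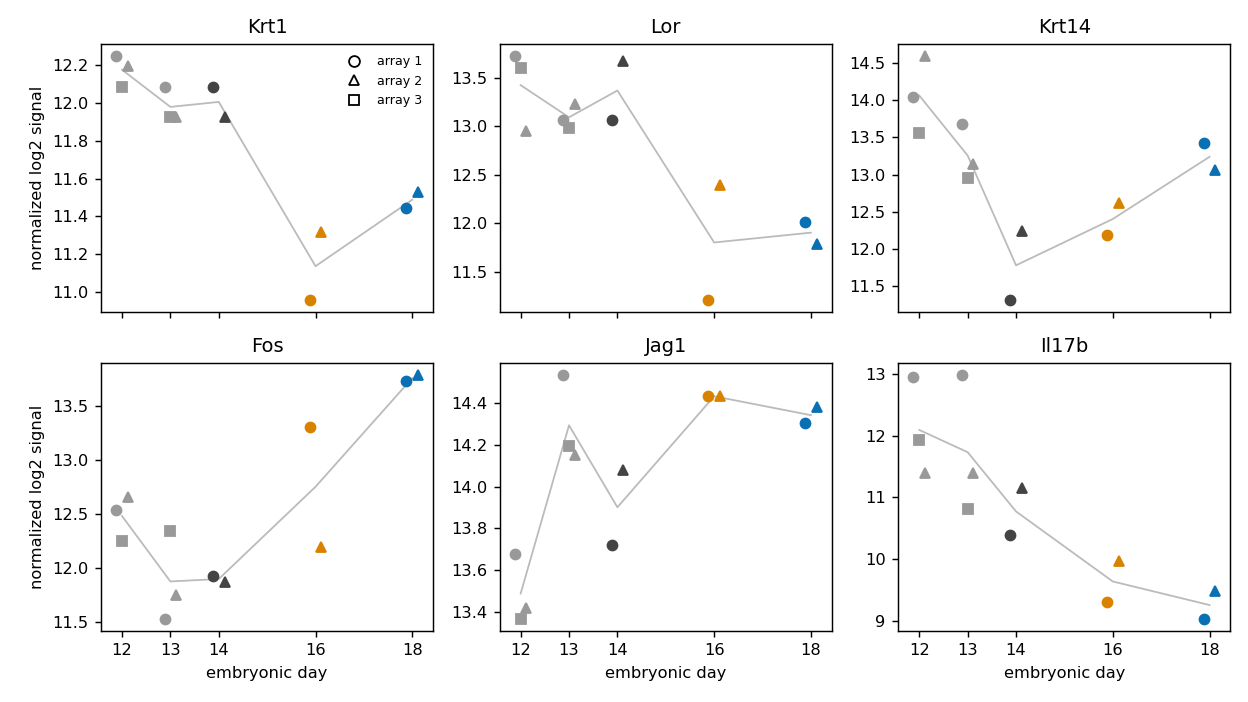
Normalized log2 signal of 6 genes on all 12 arrays against embryonic day, 1 point per array (shape for the array number, grey for E12 and E13) with a line through the stage means. Krt1 and Lor were level up to E14 and lower from E16 on, Krt14 was lowest at E14, Fos was highest at E18, Jag1 was lower at E14 than at E13, E16 and E18, and Il17b was lower at each later stage.

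Among the 5 Notch ligands, Jag1 was the 1 member whose groups did not overlap (20%, against 16.0% of all genes). Jag1 is the ligand of the early nephron best known in kidney development. Its log2 signal was 13.72 and 14.08 at E14, 14.43 on both E16 arrays, and 14.30 and 14.38 at E18. The late arrays lay close together, above both E14 arrays. The difference was 0.49 (SE 0.16, 95% interval 0.12 to 0.85, limma adjusted p = 0.324), a 1.40-fold higher level. In deposited signals the groups overlapped, with 13202 and 24007 at E14 and 18237, 27107, 19633 and 27391 later, and each array numbered 2 exceeded the array numbered 1 of its stage. Within array number 1 the late arrays averaged 0.65 above E14, and within number 2 they averaged 0.33 above. The E14 mean, 13.90, was also below that of E13, 14.29.

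The other 4 ligands overlapped between groups. Jag2, a second Jagged ligand, was above background on 1 of 2 E14 arrays, on neither E16 array and on both E18 arrays, with log2 signals of 10.81, 9.76, 9.38, 9.76, 10.66 and 10.51 in that order (difference -0.21, SE 0.47). The Delta-like ligands Dll4, Dll1 and Dll3 differed by 0.29 (SE 0.46), 0.16 (SE 0.59) and -0.19 (SE 0.39). Dll1 showed the widest gap between the 2 E16 arrays of all genes tested, 12.90 against 10.86. Dll4 is also made by arterial and tip-cell endothelium, and 3 of 7 listed endothelial markers were on the array. These, Dll4, Notch4 and Figf (Vegfd), differed by 0.29, 0.09 and 0.16, and their summed signal was 25008 and 29493 at E14 and 29025 to 33151 later. Over the 5 ligands the median was 0.16.

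None of the 4 Notch receptors passed or separated the groups (0% and 16.0% of all genes did). Notch1, the brightest of the 4 spots, was at 14.30 and 14.54 at E14, 14.30 and 14.59 at E16, and 14.63 and 14.59 at E18 (difference 0.11, SE 0.27, 95% interval -0.50 to 0.71). Notch2, the receptor on which proximal nephron formation in the mouse chiefly depends, was at 13.14 and 12.99, then 12.13 and 12.90, then 13.06 and 13.30. Both E16 arrays lay below both E14 arrays and the E18 arrays did not, and the difference was -0.21 (SE 0.36, 95% interval -1.04 to 0.61). Notch4, known from endothelium, differed by 0.09 (SE 0.40), and Notch3, known from vascular smooth muscle and related mural cells, by -0.01 (SE 0.33). The intervals of 3 of the 4 receptors lay within 1 log2 unit either way, that is, within a 2-fold change.

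The enzymes that cut the receptor showed 0 of 7 members past the test and 0 whose groups did not overlap (0% and 16.0% of all genes). Adam10, the protease of the first, ligand-triggered cut, was at 10.66 and 10.73 at E14 and between 10.39 and 11.45 later (difference 0.26, SE 0.54). Adam17, its relative, was at 14.50 and 14.59 at E14 and at 14.38 to 14.66 later (difference -0.05, SE 0.14, 95% interval -0.37 to 0.26). Of the gamma-secretase subunits, the presenilin Psen2 differed by -0.18 (SE 0.39), and the accessory subunits Aph1a, Psenen and Ncstn by 0.21 (SE 0.20), -0.15 (SE 0.17) and -0.01 (SE 0.12). Ncstn read 14.96 on 3 of the 4 late arrays. The 7 differences ran from -0.18 to 0.29. Their median was -0.01, equal to that of all genes to 2 decimals.

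Of 12 genes that modify, sort or degrade Notch proteins, 0 passed, 9 had a difference below 0, and the median was -0.13. Numbl, a relative of the Notch inhibitor Numb, was lower on all 4 late arrays. Its log2 signal was 13.55 and 13.51 at E14, 12.95 and 13.37 at E16, and 13.30 and 12.73 at E18 (difference -0.44, SE 0.19, 95% interval -0.88 to -0.01, limma adjusted p = 0.477). The nearest late array was 0.15 below E14. Numb itself overlapped (difference -0.10, SE 0.23). Dtx1, a Deltex ubiquitin ligase, was at 14.12 on both E14 arrays and at 13.82 to 14.04 later (difference -0.19, SE 0.20), while Dtx2 and Dtx3 differed by -0.01 and -0.02. Of the 12 genes, 25% were without overlap (Numbl, Dtx1 and Lfng), against 16.0% of all genes. Lfng, a fringe glycosyltransferase that tunes the response of receptors to ligands, was the third of these. It was at 9.70 and 9.90 at E14, 10.39 and 10.01 at E16, and 10.12 and 10.46 at E18 (difference 0.44, SE 0.48). For Lfng 1 E14 array was not above background. The fringes Mfng and Rfng differed by -0.27 (SE 0.41) and -0.17 (SE 0.56). Pofut1, which adds O-fucose to Notch, was at -0.34 (SE 0.36), Neurl (Neurl1a), a ubiquitin ligase of the Neuralized family, at -0.27 (SE 0.20), Sel1l, of endoplasmic reticulum quality control, at 0.19 (SE 0.19) and the ubiquitin ligase Cbl at 0.43 (SE 0.66). Cbl was above background on neither E14 array and on 2 of the 4 late arrays, and its late level did not exceed the bound set by E14.

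The Hes and Hey repressors, several of which are usual readouts of Notch activity, showed no member past the test. Hes1, the most general of them, was among the brightest at 14.68 and 14.63 at E14, with 14.92 and 14.68 at E16 and 14.88 on both E18 arrays (difference 0.18, SE 0.11, 95% interval -0.06 to 0.43, limma adjusted p = 0.772). The lowest late array equalled the higher E14 array to 2 decimals. Heyl was at 11.10 and 11.61 at E14, at 12.47 and 12.02 at E16, and back at 11.10 and 11.61 at E18, so that its mean difference of 0.45 (SE 0.33) came from E16 alone. Hes5, a gene of the early nephron, differed by -0.08 (SE 0.44). Hes6 and Hey1 lay near 0, at -0.01 (SE 0.10) and 0.04 (SE 0.12), and Hey2 at 0.28 (SE 0.37). Of the 6 differences 4 were above 0, and the median was 0.11.

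**Figure D3:**
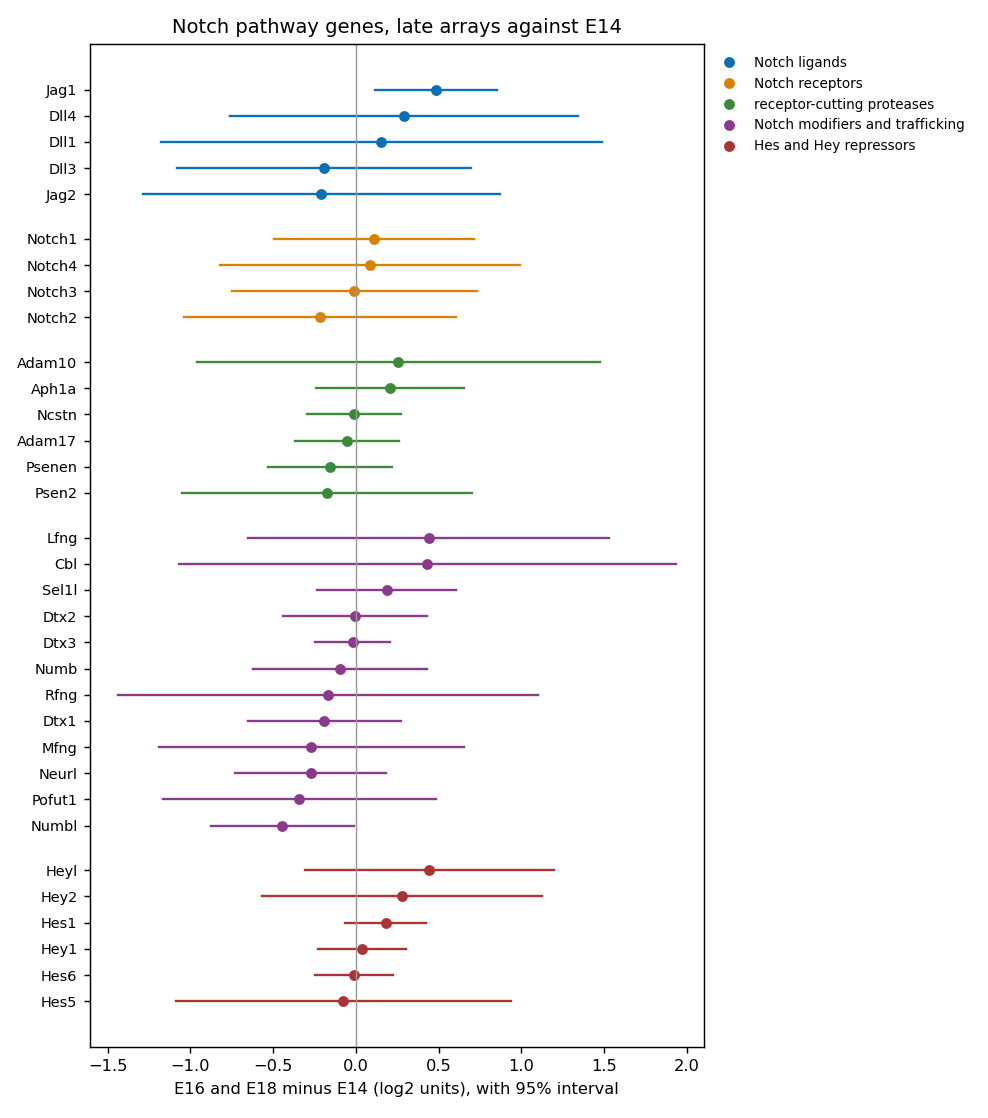
Difference between the mean of the 4 late arrays and the mean of the 2 E14 arrays in log2 units (point) with its 95% interval from the limma fit (line), for the Notch ligands, receptors, proteases, modifiers and Hes and Hey genes named in the text. The intervals of Jag1 and Numbl excluded 0 before adjustment for the number of genes, and those of the other genes drawn held 0.

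Across these 5 Notch lists together, 34 genes were tested. Of these, 2 (5.88%) had an unadjusted p under 0.05, against 10.4% of all genes, and 4 (11.8%) did not overlap, against 16.0%. For 19 of the 34 the 95% interval lay within a 2-fold change in either direction, and for the rest the interval reached past such a change. The median difference was -0.01 both here and over all genes.

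In the nuclear complex, Rbpj, the DNA-binding partner of cleaved Notch, was at 14.08 and 14.04 at E14 and at 13.72 to 14.34 later (difference -0.06, SE 0.23). The co-activators Ep300 and Supt6h (Supt6) differed by 0.52 (SE 0.53) and 0.02 (SE 0.24). Snw1, an Rbpj-binding transcription and splicing factor, read 13.23 on E14 array 1 and 9.30 on E14 array 2, the widest gap between arrays of any stage compared, and 11.40 to 11.69 on the 4 late arrays. Its deposited signal on E14 array 2, 748, was not above that array's background limit of 1320. The difference of 0.34 (SE 0.96) therefore rests on the 2 E14 arrays. It was -1.60 without E14 array 2 and 2.31 without E14 array 1. Among co-repressors, hr, a nuclear co-repressor of skin and hair, was lower on all 4 late arrays, at 11.40 to 11.79 against 12.02 and 12.13 (difference -0.46, SE 0.24, adjusted p = 0.621). Spen was higher on all 4, at 14.46 to 14.76 against 14.41 on both E14 arrays (difference 0.21, SE 0.16). Tle1 differed by -0.47 (SE 0.38) and Aes (Tle5) by -0.12 (SE 0.11). Of 5 co-activator genes tested 4 were above 0 (median 0.02), and of 6 co-repressor genes 5 were below 0 (median -0.10).

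Wnt signalling acts beside Notch in nephron formation, and 15 listed genes of it were on the array. Fzd2, a Frizzled receptor, was at 10.04 and 9.42 at E14, 10.86 and 10.39 at E16, and 10.86 and 10.57 at E18. All 4 late arrays were higher (difference 0.94, SE 0.29, 95% interval 0.28 to 1.60, limma adjusted p = 0.28), but 1 of the 2 E14 arrays was not above background. Lrp5, the Frizzled co-receptor, was at 12.39 and 12.61 at E14 and 11.10 and 11.45 at E16. At E18 it was at 12.39, the value of E14 array 1, and at 11.25 (difference -0.96, SE 0.36, adjusted p = 0.398). The Frizzled genes Fzd9, Fzd8 and Fzd5 differed by 0.57 (SE 0.25), 0.59 (SE 0.41) and -0.57 (SE 0.35). These 3 values rested on the E14 arrays: without E14 array 1 they were 0.07, -0.14 and -0.87, and without E14 array 2 they were 1.05, 1.32 and -0.28. For Fzd8, 1 of the 2 E14 arrays was not above background. Fzd5 was above background on both E14 arrays but on only 2 of the 4 late arrays, so its low end is partly background. Ctnnb1, beta-catenin, was lower on all 4 late arrays by a small step, 14.80 to 14.96 against 15.02 on both E14 arrays (difference -0.12, SE 0.14). Of 13 Wnt genes tested, 2 were higher and 1 lower at an unadjusted p under 0.05 (5.66% and 4.72% of all genes), 0 passed, and the median was 0.17.

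Of 7 Hedgehog genes tested, 0 passed and 0 were without overlap (0% and 16.0% of all genes). For 5 the difference was below 0, and the median was -0.18. Stil, a centriole gene needed for Hedgehog signalling, differed by -0.39 (SE 0.24). The transcription factor Gli3 differed by -0.26 (SE 0.17), the receptor component Smo by -0.18 (SE 0.20) and the inhibitor Sufu by -0.49 (SE 0.55). Of the cell cycle genes, Ccne1, the G1/S cyclin E1, was at 14.76 and 14.68 at E14, 14.80 and 14.30 at E16, and 13.98 and 14.19 at E18. E16 array 1 lay above both E14 arrays and the other 3 late arrays below (difference -0.40, SE 0.17, adjusted p = 0.477). Mycl1 (Mycl), a Myc family gene, differed by -0.18 (SE 0.21) and Cflar, an inhibitor of death-receptor signalling, by 0.46 (SE 0.69). Of 9 genes in the cell cycle and survival list, 4 differences were above 0, and the median was -0.04.

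Of 8 NF-kB and immune genes tested, 3 had all late arrays above E14 and 1 had all below, where 16.0% of all genes were without overlap. Gbp2, an interferon-induced GTPase, was at 11.06 and 11.40 at E14 and at 11.87, 11.69, 11.87 and 11.93 later (difference 0.61, SE 0.29, adjusted p = 0.511). Il6st, the signal-transducing receptor of the interleukin-6 family, was at 12.47 and 13.14 and then at 13.51, 13.42, 13.51 and 13.42 (difference 0.66, SE 0.36). Stat6, a transcription factor of interleukin-4 signalling, was at 9.65 and 9.97 and then at 10.66, 10.46, 11.25 and 10.04, with 1 E14 array not above background (difference 0.79, SE 0.54). Il17b, which encodes an interleukin-17 relative, went the other way, from 10.39 and 11.15 to 9.30, 9.97, 9.03 and 9.47 (difference -1.33, SE 0.62, 95% interval -2.74 to 0.09, limma adjusted p = 0.511). It was above background on both E14 arrays, 1 E16 array and neither E18 array, so the low end is partly background. Of these 8 genes, 6 had a difference above 0, 0 passed, and the median was 0.13.

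Pparg, a nuclear receptor of lipid metabolism, was at 11.79 and 11.50 at E14, at 11.53 and 12.54 at E16 and at 12.29 on both E18 arrays. E16 array 1 fell within the E14 range (difference 0.52, SE 0.29, adjusted p = 0.73). The blood-cell markers tested, 5 of 8 listed, had 1 difference above 0 and 4 below. Their median, -0.21, was the value of Runx1 (SE 0.60), which was above background on 1 of 2 E14 and 1 of 4 late arrays. With 1 array left out, Runx1 ran from -1.14 to 0.71. Lmo2, above background on both E14 and all 4 late arrays, differed by 0.04 (SE 0.13). Summed over the 7 listed blood-cell markers on the array, linear normalized signal was 36261 and 34972 at E14 and 33745 to 36310 later, so the groups overlapped. Pax5, a B-cell regulator, was lower on all 4 late arrays (9.61 to 10.23 against 10.51 and 10.30) and was above background on 1 E14 array and 3 late arrays (difference -0.43, SE 0.78). Ptcra, of T-cell precursors, and Ifng differed by -0.13 (SE 0.37) and -0.28 (SE 0.21), and Ifng was above background on 1 of 2 E14 and 1 of 4 late arrays. Housekeeping genes differed by -0.03 to 0.09, with B2m at 0.09 (SE 0.13), Rps27a at 0.05 (SE 0.12), Hsp90ab1 at 0.00 (SE 0.09), Ppia at -0.01 (SE 0.09) and Gapdh at -0.03 (SE 0.10).

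Since the late group pools 2 stages, each was also set against the same E14 arrays, and these comparisons share those controls. At E16, Krt1 was the 1 gene of 106 (0.943%) past the test (difference -0.87, SE 0.15, limma adjusted p = 0.0358), where 8 genes had an unadjusted p under 0.05, 5 higher (4.72%) and 3 lower (2.83%). That call was kept in 5 of 25 alternatives and was lost on leaving out any 1 of the 12 arrays other than E16 array 2. At E18, 0 genes (0%) passed, and 8 (7.55%) had an unadjusted p under 0.05, 4 in each direction (3.77%). There Krt1 differed by -0.52 (SE 0.15, adjusted p = 0.224). Lor differed by -1.57 at E16 and -1.47 at E18 (SE 0.40 for both), Jag1 by 0.53 and 0.44 (SE 0.19) and Fzd2 by 0.89 and 0.98 (SE 0.33). Fos differed by 0.85 at E16 and 1.86 at E18 (SE 0.36), and Krt14 by 0.62 and 1.46 (SE 0.41). The test of the difference between the 2 stages had 0 genes past the threshold (0%) and 4 (3.77%) at an unadjusted p under 0.05, 2 higher (1.89%) and 2 lower (1.89%) at E18. These 4 were Fos (1.00, SE 0.36), Krt1 (0.35, SE 0.15), Ccne1 (-0.47, SE 0.20) and Heyl (-0.89, SE 0.38), each E18 minus E16 with a limma adjusted p of 1.

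The spread between arrays set what could be seen. Among the dimmest 35 genes the 2 E14 arrays differed by a median of 0.58 log2 units and the median SE of the comparison was 0.46. Among the brightest 36 these values were 0.09 and 0.15. The 2 E14 arrays were over 1 log2 unit apart for 11 of 106 genes, the E16 arrays for 13 and the E18 arrays for 6. How the signals were scaled also mattered for the 17 genes without overlap. All 17 stayed so without background correction, with the background taken from the negative controls and with the 6 arrays normalized alone. These settings keep the order of the spots within an array, and quantile normalization uses that order only. Their outcome was therefore fixed in advance. Of the 17, 8 stayed so with array medians, 8 with housekeeping scaling, 9 with no normalization and 6 in the deposited ratios. The 5 that also held under each of these scalings were Krt1, Lor and Il17b (lower) and Ivl and Gbp2 (higher). Of these 5, Ivl was above background on neither E14 and neither E18 array, and Il17b on 1 of the 4 late arrays. Within array number 1, the late arrays differed from E14 by -0.88 for Krt1, -1.45 for Lor and 1.59 for Fos. Within number 2 the differences were -0.50, -1.59 and 1.12.

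**Figure D4:**
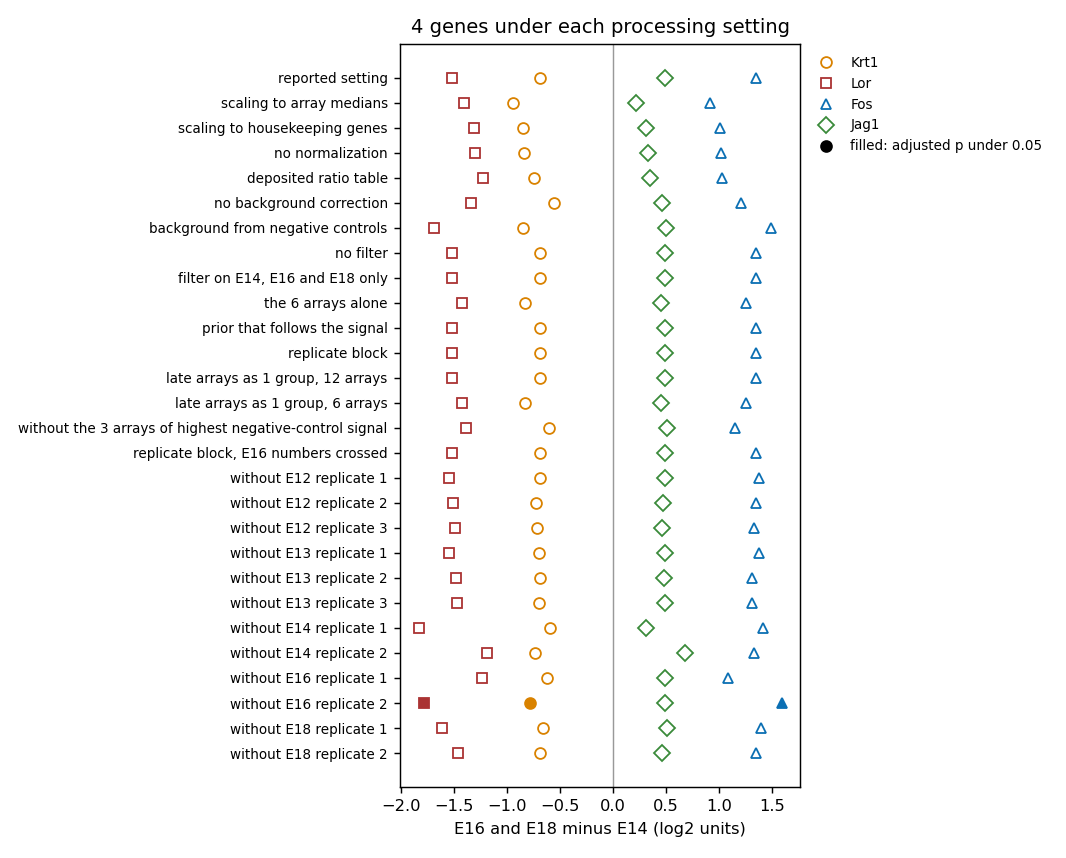
Difference between the late arrays and E14 in log2 units for Krt1, Lor, Fos and Jag1 under the reported setting and each of 27 alternatives, with filled symbols where the adjusted p was under 0.05. Every difference kept its sign, and symbols are filled only without E16 replicate 2, for Krt1, Lor and Fos.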

How the data were processed

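Total RNA of embryonic kidney was amplified, labelled with biotin and read on oligonucleotide membranes by chemiluminescence, per the labels' protocols. The deposited array files hold 1 unnormalized signal intensity per spot, and the sources used here do not name the image software. The authors' deposited value table holds a ratio, worked out here from the values as each spot minus the array's lowest spot over the mean Ppia signal (2 spots) less the same lowest spot (largest deviation 5e-10 over 115 spots). It served as an alternative.

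From the intensities, background was corrected by normexp (offset 50) over 128 spots. Control spots were then removed, log2 values of the 120 gene spots were quantile normalized, and spots of 1 gene were averaged. Genes above the mean plus 2 SD of the 6 negative controls throughout at least 1 stage were tested (106 of 118). limma 3.58.1 in R 4.3.3 was fitted with a mean per stage over the 12 arrays (7 residual and 1.72 prior degrees of freedom), tested on simulated data first. The contrast was the mean of the E16 and E18 means minus E14, with p-values adjusted by Benjamini-Hochberg over the 106 genes and a threshold of 0.05. The number of arrays and their background limit the precision.

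The comparison, gene lists and named genes were chosen with earlier results of these data known. Named were genes past the threshold, up to 12 of smallest p in each direction, the members of the 5 Notch lists, up to 4 of each other list, the housekeeping genes, and up to 8 genes in each direction with the widest gap. Some further genes of the 17 without overlap, and Tead1 and Lmo2, were named after their values were seen. Same-numbered arrays of E14 and E18 deviated together (r = 0.37 over 106 genes), while those of E14 and E16 (r = -0.06) and of E16 and E18 (r = -0.15) did not, so the numbers were not taken as pairs over the 3 stages. Of 118 accessions 115 matched RefSeq, 9 under another symbol. Alternatives changed the background correction, scaling, filter, prior, arrays fitted and replicate block.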

Additional observations from a re-analysis of the deposited data

Results flagged for a closer look

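Of 77 named genes, 5 had 1 of the 4 late arrays set apart from the other 3, with a gap over the whole range above Dixon's 95% critical value; chance gives about 1 group in 20. E16 array 1 was lowest for Notch1 (0.873) and for Ncstn (1, since the other 3 arrays had the same value) and highest for Hes6 (0.881). E18 array 2 was lowest for Tle1 (0.934) and for Wnt11 (0.839). None of these 5 genes passed the comparison with E14 in limma, and the differences were 0.11 for Notch1, -0.01 for Ncstn and Hes6, -0.47 for Tle1 and 0.17 for Wnt11.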

How the results depend on the processing

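The count of 0 genes between the late group and E14 was also 0 in 25 of 27 alternatives, with 4 to 15 genes at an unadjusted p under 0.05. Leaving out E16 replicate 2 gave 3 genes (Krt1, Lor, Fos). The other alternative with a count above 0 left out E14 replicate 1, which leaves 1 E14 array, and it rested on Tead1. The E14 arrays of Tead1 read 10.77 and 7.34. Neither E14 array 2 nor any of the 4 late arrays was above background for Tead1, so that comparison was between background values. For E16 against E14 the count of 1 fell to 0 with the deposited ratios, no normalization, scaling to array medians or to housekeeping genes, the 6 arrays alone, a prior that follows the signal, the replicate block, the block with E16 numbers crossed, and without the 3 arrays of highest negative control. It ran from 0 to 2 when 1 array was left out. For E18 against E14 the count of 0 became 1 (Fos) with a prior that follows the signal and ran from 0 to 1 (Fos, without either E16 array) when 1 was left out. For E18 against E16 it was 0 throughout. The cause of these shifts was not tested. With the replicate block 0 genes passed in the pooled comparison and 9 had an unadjusted p under 0.05, and with crossed numbers these were 0 and 10. The last block and the fit without the 3 high-control arrays were chosen after seeing the data. In that fit the late group kept only E16 array 2 and E18 array 2, 1 array of each stage. The differences there were -0.60 for Krt1, -1.38 for Lor and 1.15 for Fos. Over all alternatives the difference ran from -0.94 to -0.56 for Krt1, from -1.84 to -1.19 for Lor, from 0.91 to 1.60 for Fos and from 0.22 to 0.68 for Jag1. Of the 77 named genes 36 changed sign under at least 1 alternative, among them Notch3, Notch4, Dll1, Hey1 and Hes5, and none of these passed the test as reported. Array-median scaling moved the median of all genes to -0.10.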
